A study of Arabidopsis thaliana with 6 samples.

Results

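The histone genes of Arabidopsis thaliana were examined in root tips of wild-type plants and of the mutant ore15-2. A list of 37 genes encoding histones H1, H2A with its variants, H2B, H3.1, H3.3 and H4 was taken from gene identifiers, and all 37 were among the 18734 genes of the deposited count table. The 23 genes of the replication-coupled group encode H4 (8 genes), H3.1 (5), H2B (6) and canonical H2A (4). The 11 variant genes encode H3.3 (3), H2A.X (2), H2A.W (3) and H2A.Z (3), and the other 3 encode linker histone H1. The RNA was from the last 0.5 cm of primary roots, cut from seedlings 5 days after planting. Col was the wild type of the Columbia-0 background, and ore15-2 was a T-DNA insertion line of ORE15, a gene for a PLATZ-type zinc-binding transcription factor, in that background. Each genotype had 3 libraries of poly(A) RNA with no hormone treatment stated for them. The comparison asks how histone transcripts differed between roots with and without intact ORE15, a gene studied by the submitters for its part in meristem size.

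Histones H2A, H2B, H3 and H4 form the protein core around which DNA is wrapped, and H1 binds the DNA between cores. Replication-coupled histones are made mainly in S phase and are placed on newly copied DNA, so their transcripts are abundant in dividing cells. Variant histones are made and placed outside S phase as well. H3.3 is placed at transcribed genes by the HIRA complex, H2A.Z is placed near gene starts by the SWR1 complex, H2A.W marks heterochromatin, and H2A.X is phosphorylated at DNA breaks. In plants the transcripts of all these genes carry poly(A) tails, so a poly(A) library holds them.

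Total counts were 17433440 to 20333352 in the Col libraries, and 6706712, 6396903 and 16503138 in ore15-2 replicates 1, 2 and 3. The count of ORE15 (AT1G31040) was 13, 12 and 8 in Col and 0, 0 and 1 in ore15-2. Replicates 1 and 2 of ore15-2 stood apart, with 2.91% and 3.20% of counts in mitochondrial genes against 0.183% to 0.328% in the other 4 libraries. The libraries had counts of 64 to 8646 per histone gene. The labels state 2 seedlings for each genotype and do not tie the libraries to separate plants, so p-values measure only the spread among these libraries, which may be technical. The labels call the cells root meristem stem cells. Markers of the meristem (PLT1, PLT2, SCR, SHR and WOX5) were detected, but so were markers of root hairs, endodermis, xylem and root cap, at sums of 242, 442, 199 and 34.01 CPM in Col replicate 1. The tip therefore held differentiated tissue too. In such bulk RNA, fewer cells of a type and less RNA per cell cannot be told apart.

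The 5 H3.1 genes encode 1 identical protein of 136 residues, and the 3 H3.3 genes encode another of the same length. The 2 proteins differ at 4 residues, in codons 32, 42, 88 and 91 counted from the start codon as 1. The coding sequences of an H3.1 and an H3.3 gene were 74.7% to 81.3% identical, and no stretch of 50 bases of an H3.3 transcript was shared with another gene. Codons 79 to 98 are printed here because they hold the last pair of those differences and show the letters in which reads of the 2 kinds differ. The capitals mark codons 88 and 91, the sequences are from the TAIR10.1 reference of RefSeq, and all 4 genes lie on the minus strand.

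AT5G65360 (H3.1): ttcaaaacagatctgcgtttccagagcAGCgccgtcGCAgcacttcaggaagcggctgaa
AT1G09200 (H3.1): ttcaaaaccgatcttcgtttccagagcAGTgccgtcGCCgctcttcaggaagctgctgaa
AT4G40040 (H3.3): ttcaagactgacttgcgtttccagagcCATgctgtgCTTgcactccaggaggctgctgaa
AT5G10980 (H3.3): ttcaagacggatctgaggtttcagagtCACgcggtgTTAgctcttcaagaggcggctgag

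The 8 H4 genes likewise encode 1 protein of 103 residues, from coding sequences that were 78.8% to 98.1% identical. The H2B, H2A and H1 genes each encode a protein of their own. Of the 23 replication-coupled genes, 19 had a single coding exon, namely every H4, H3.1 and H2B gene, whereas none of the 11 variant genes and none of the 3 linker genes did. A stretch of 50 bases or more was shared with another gene in 15 of the 37 genes, and 8 of the 37 overlapped another gene. Counts of these genes are uncertain to that extent. The sharing was largest for HTA3, where 53.3% of 50-base stretches also lay in the overlapping genes AT1G54680 and AT1G07983. It was 39.2% for AT1G06760, 35.6% for AT3G27360, 34.2% for HTA12 and 31.4% for HTB9, and it reached 28.5% among the H4 genes (AT1G07660).

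In Col, the H3.3 genes gave the highest levels of all histone genes per coding length. The deposited RPKM (reads per kilobase of coding length, scaled to the library total) averaged 1028 ± 12.4 (SD, n = 3) for AT4G40040, 779.9 ± 14.2 (n = 3) for AT5G10980 and 713 ± 12.8 (n = 3) for AT4G40030. Each of the 3 lay above AT5G59690, the highest H4 gene, at 664 ± 15.3 RPKM (n = 3), which did not differ beyond its spread from HTB4, the highest H2B gene, at 663 ± 12.9 RPKM (n = 3). The order changes with the length used, because reads of untranslated parts were counted while only the coding length was divided by, and the coding part made up 27.6% to 71.2% of these transcripts. Per kilobase of whole transcript AT4G40040 and AT5G10980 still ranked 1 and 2, while AT4G40030 ranked 5 and AT5G59690 ranked 7.

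Among the highest genes of the other classes, the next levels belonged to HTA10 for canonical H2A at 487 ± 19.6 RPKM (n = 3), to AT1G09200 for H3.1 at 441 ± 3.67 RPKM (n = 3), and to HTA9 for H2A.Z at 428 ± 3.09 RPKM (n = 3). HTA6 led H2A.W at 400.3 ± 3.86 RPKM (n = 3), AT1G06760 led H1 at 398 ± 9.79 RPKM (n = 3), and HTA3 led H2A.X at 259 ± 12.4 RPKM (n = 3). HTA6 and AT1G06760 did not differ beyond their spread. The lowest values were those of the H2B gene AT2G28720 (63.6 RPKM), of HTA12 (62.8 RPKM), of HIS1-3 (58.6 RPKM) and of the H3.1 gene AT3G27360 (40.9 RPKM), which overlaps AT3G27380 by 328 bases on the same strand. Within a class the genes spanned a wide range. The 5 H3.1 genes ran from AT3G27360 through AT5G10390, AT5G10400 and AT5G65360 to AT1G09200, although they encode the same protein.

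**Figure D1:**
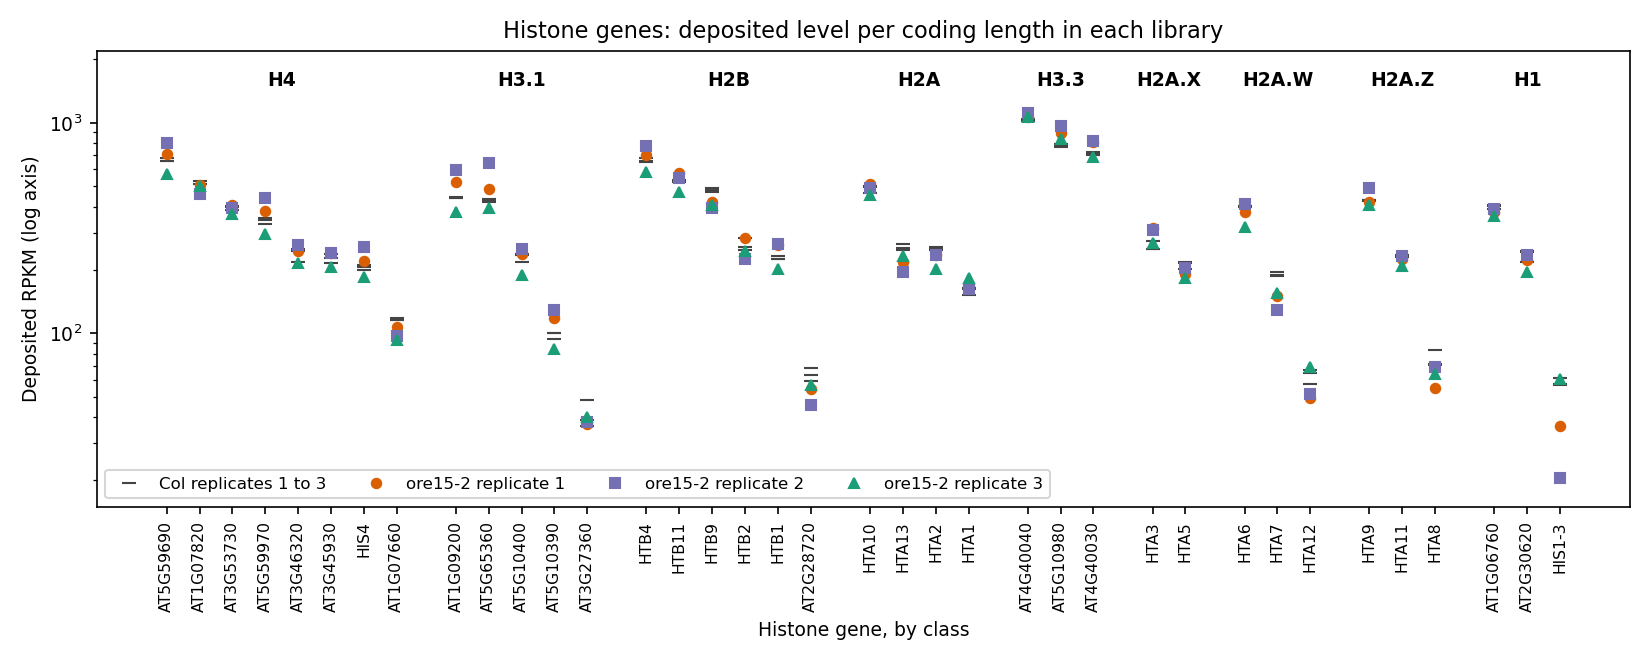
Deposited RPKM (reads per kilobase of coding length, scaled to the library total, log axis) of each histone gene in each of the 6 libraries, grouped by class and ordered by the mean in Col. Dashes are the 3 Col libraries and coloured symbols are the 3 ore15-2 libraries. The 3 H3.3 genes have the highest values, above 664 RPKM in Col, and AT3G27360 has the lowest, at 40.9 RPKM.

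Between ore15-2 and Col, none of the 37 histone genes passed the test. By edgeR's quasi-likelihood test with Benjamini-Hochberg adjustment over the 18726 genes tested, 0 histone genes were called higher and 0 lower at an adjusted p under 0.05, while 9.9% of all genes tested were called, 6.47% higher and 3.43% lower. At an unadjusted p under 0.05 there were 3 histone genes, where the share over all genes was 26.9%. DESeq2 and limma-voom also called 0, beside 13.5% and 9.45% of all genes, with 6 and 4 histone genes at an unadjusted p under 0.05. The fitted log2 fold changes (ore15-2 less Col) were above 0 for 30 of the 37 genes and below 0 for 7, from -0.36 for HIS1-3 to 0.51 for the H3.1 gene AT5G65360. Their median was 0.21, where the median over all genes tested was -0.00050.

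What the histone genes showed was a wide spread within ore15-2. The median coefficient of variation of their CPM values (counts scaled to a common library size) was 2.80% in Col and 20.8% in ore15-2, against 6.33% and 16.9% over all genes tested. Relative to the Col mean, the median log2 change of the 37 genes was 0.25 in ore15-2 replicate 1, 0.45 in replicate 2 and -0.11 in replicate 3. The same medians over all genes tested were 0.01, -0.02 and 0.00. In 34 of 37 genes replicate 2 was above replicate 1, and in 34 of 37 replicate 1 was above replicate 3. These 2 counts are on the CPM scale, and no such count was made over all genes. In RPKM the order was lost for some genes, such as HTA1 at 170, 162 and 182 in replicates 1, 2 and 3. It was kept for others, such as AT1G09200 at 524, 600 and 379.

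Replicates 1 and 2 were both above every Col library for 28 of the 37 histone genes, where 32.4% of all genes tested were. Replicate 3 was below every Col library for 26 of the 37, where 35.6% of all genes were. Both held for 20 of the 37 genes, where 7.12% of all genes tested had that split. These counts are on CPM and depend on its scaling. The TMM scaling factors were 0.923 and 0.786 in ore15-2 replicates 1 and 2, and 1.06 to 1.11 in the other libraries. In RPKM some genes lost the split and others kept it. AT1G07660 was at 115 to 117 RPKM in Col and at 107, 97.2 and 93.4 in ore15-2. AT1G09200 was at 438 to 445 RPKM in Col and at 524, 600 and 379 in ore15-2. All 3 ore15-2 libraries were above all 3 Col libraries for 4 histone genes (AT4G40040, AT5G10980, HTA1 and HTA3), beside 18.2% of all genes, and below for HTA7 alone, beside 16.3% of all genes. In RPKM, which is scaled by library total, AT4G40040 and AT5G10980 were still above (2 of 37, beside 9.47% of all genes), whereas HTA1 and HTA3 overlapped. On that scale 8 of 37 were below all Col libraries, beside 31.1% of all genes, namely AT1G07660, AT1G07820, HTB9, AT2G28720, HTA2, HTA13, HTA7 and HTA8.

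**Figure D2:**
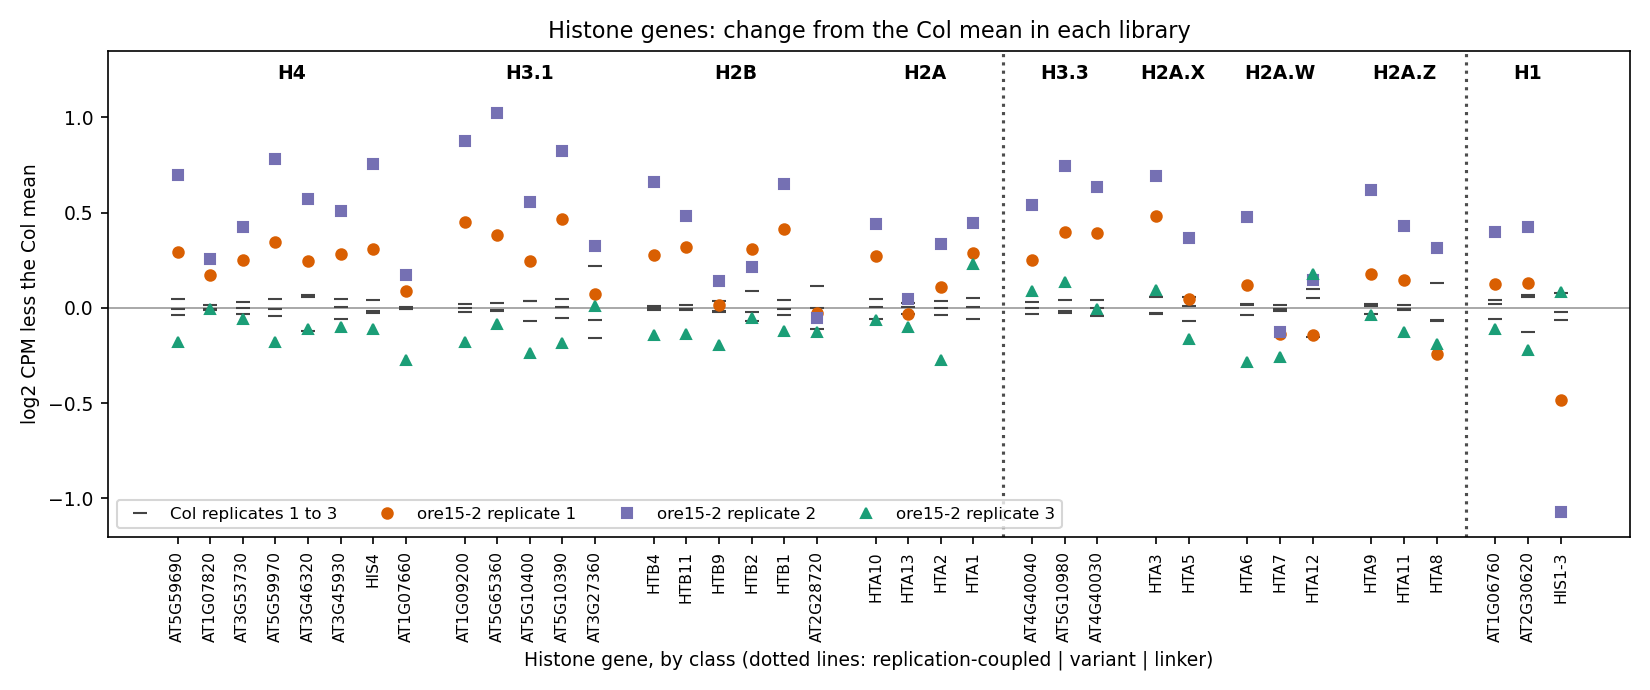
Log2 CPM less the Col mean (vertical axis) for each histone gene in each library, grouped by class, with dotted lines between the replication-coupled, variant and linker genes. Dashes are the 3 Col libraries and coloured symbols are the 3 ore15-2 libraries. In most genes replicate 2 is highest, replicate 1 lies between, and replicate 3 is at or under the Col values, with group medians of 0.45, 0.25 and -0.11. HIS1-3 has the reverse order.

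Without ore15-2 replicate 3, edgeR called 20 histone genes higher and HIS1-3 lower at an adjusted p under 0.05, but 35.3% of all genes were then called (18.7% higher and 16.6% lower). The 20 were 6 H4 genes (HIS4, AT3G53730, AT5G59690, AT5G59970, AT3G46320 and AT3G45930), 4 H3.1 genes (AT1G09200, AT5G10390, AT5G10400 and AT5G65360), all 3 H3.3 genes, HTB1, HTB4, HTB11, HTA1, HTA10, HTA3 and HTA9. Without replicates 1 and 2, HTA2, HTA6 and HTA7 were called lower and none was called higher, beside 5.63% of all genes called lower and 11% called higher. The lone ore15-2 library is then assumed to vary like Col. The part in these values of the mitochondrial share and of the library size, which set replicates 1 and 2 apart, was not tested.

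The length of the genes moved with the same libraries. Among 4805 other genes with a coding length in the range of the histone genes (312 to 825 bases), the median change was 0.08, 0.16 and 0.03 in ore15-2 replicates 1, 2 and 3. Among 3154 genes with a coding length above 2000 bases it was -0.03, -0.18 and -0.01. The histone medians were 0.25, 0.45 and -0.11 in the same libraries. The range reaches 825 bases through the H1 genes alone, and all other histone genes had coding lengths of 312 to 462 bases. The 4805 genes are thus not matched to most histone genes in length. The part of gene length in the histone values was not tested.

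Among the H4 genes, AT5G59690 is the most abundant and HIS4 had the smallest p. AT5G59690 (chr5:24051474-24052218, plus strand) was at 184, 188 and 195 CPM in Col and at 231, 307 and 167 CPM in ore15-2, so its genotypes overlapped. HIS4 (chr2:12329345-12330059, minus strand) was at 57.7, 57.3 and 59.96 CPM in Col and at 72.4, 98.4 and 54.1 CPM in ore15-2, a fitted log2 difference of 0.35 ± 0.18 (SE, edgeR adjusted p = 0.258). In both genes replicates 1 and 2 were above and replicate 3 below all Col libraries. That pattern was shared by 6 of the 8 H4 genes, beside 7.12% of all genes tested. The fitted log2 fold changes of the H4 genes ran from -0.01 (AT1G07660) to 0.36 (AT5G59970), with a median of 0.25 and with 7 of 8 above 0. AT1G07820, AT3G53730, AT3G46320 and AT3G45930 lay between.

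The H3.1 genes had the largest class median, at 0.40 on the log2 scale, with 5 of 5 above 0. AT1G09200 (chr1:2971571-2972334, minus strand) was at 162, 165 and 167 CPM in Col and at 225, 302 and 146 CPM in ore15-2. AT5G65360 (chr5:26119859-26120581, minus strand) was at 158, 163 and 159 CPM in Col and at 208, 325 and 151 CPM in ore15-2, a log2 difference of 0.51 ± 0.24 (SE, edgeR adjusted p = 0.203). For AT5G65360 the value in replicate 2 was 1.02 above the Col mean on the log2 scale, the largest upward change among the 37 genes, while replicate 3 was below that mean. AT5G10390 and AT5G10400, which lie next to each other on chromosome 5, had log2 differences of 0.40 and 0.21, and AT3G27360 one of 0.12. By library, H3.1 had medians of 0.38, 0.82 and -0.18 in ore15-2.

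Among the H2B genes, HTB4 is the most abundant and HTB1 had the smallest p. HTB4 (chr5:24126877-24128162, plus strand) was at 276, 273 and 271 CPM in Col and at 332, 433 and 247 CPM in ore15-2. HTB1 (chr1:2412938-2413790, plus strand) was at 90.1, 92.2 and 95.1 CPM in Col and at 123, 145 and 85.0 CPM in ore15-2, a log2 difference of 0.34 ± 0.17 (SE, edgeR adjusted p = 0.241). Both genes had replicate 3 below and the others above Col. HTB11 and HTB2 had log2 differences of 0.24 and 0.16, while HTB9 and AT2G28720 had -0.01 and -0.08. The class median was 0.20.

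Canonical H2A held the histone gene with the smallest p of all, HTA1 (RAT5), whose mutant resists transformation by Agrobacterium. HTA1 (chr5:22196287-22197492, plus strand) was at 57.2, 54.9 and 59.2 CPM in Col and at 69.8, 77.9 and 67.0 CPM in ore15-2, so all 3 ore15-2 libraries were higher. The log2 difference was 0.32 ± 0.10 (SE, 95% interval 0.10 to 0.54), and it missed the threshold (edgeR adjusted p = 0.0698). HTA10 (chr1:18926811-18927746, plus strand), the most abundant, was at 178, 170.1 and 183 CPM in Col and at 214, 239.8 and 169 CPM in ore15-2, which overlapped. HTA2 and HTA13 had log2 differences of 0.07 and -0.03, and the class median was 0.15.

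Among the variants, H3.3 stood nearest to a common direction. AT4G40040 (chr4:18557149-18558945, minus strand) was at 376, 393 and 385 CPM in Col and at 458, 560.04 and 408 CPM in ore15-2. AT5G10980 (chr5:3472405-3473570, minus strand) was at 286, 299.98 and 289 CPM in Col and at 384, 489 and 321 CPM in ore15-2, a log2 difference of 0.45 ± 0.17 (SE, 95% interval 0.06 to 0.84, edgeR adjusted p = 0.135). In both genes every ore15-2 library was above every Col library, as in 18.2% of all genes tested, without passing the threshold. AT4G40030 had a log2 difference of 0.36, and its replicate 3 value of 266 CPM lay among the Col values of 259, 274 and 267 CPM. In CPM no H3.3 gene had replicate 3 below the Col libraries, whereas 4 of the 5 H3.1 genes did, beside 35.6% of all genes tested. With 3 and 5 genes these counts are small. In RPKM AT4G40030 had replicate 3 below Col too, at 691 against 702 to 727. By library, H3.3 had medians of 0.39, 0.64 and 0.09 in ore15-2.

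The H2A.X genes HTA3 and HTA5 encode the form phosphorylated at DNA breaks. HTA3 (chr1:20414316-20415287, minus strand) was at 105, 99.3 and 98.9 CPM in Col and at 142, 164 and 108 CPM in ore15-2. All 3 ore15-2 values were higher, and the log2 difference of 0.44 ± 0.15 (SE, 95% interval 0.11 to 0.77) missed the threshold (edgeR adjusted p = 0.0968). HTA5 had a log2 difference of 0.09, with overlapping genotypes. The count of HTA3 is uncertain, since it shares sequence with overlapping genes on the other strand and the strand setting of the counting is not given in the sources used here.

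H2A.W, the heterochromatin form, had the lowest class median, at 0.07. HTA6 (chr5:24115354-24116220, minus strand) was at 161, 167 and 167 CPM in Col and at 179.6, 229 and 135 CPM in ore15-2. HTA7 (chr5:9792509-9793560, minus strand) was at 79.5, 78.4 and 77.7 CPM in Col and at 71.6, 71.97 and 65.6 CPM in ore15-2, a log2 difference of -0.17 ± 0.09 (SE, edgeR adjusted p = 0.244). HTA7 was thus lower in all 3 ore15-2 libraries, unlike HTA6, whose replicates 1 and 2 were above and replicate 3 below Col. HTA12, which overlaps AT5G02570 by 522 bases, had a log2 difference of 0.07.

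H2A.Z was led by HTA9 (chr1:19645236-19646485, plus strand), at 154.3, 159.8 and 159 CPM in Col and at 178, 242 and 153.8 CPM in ore15-2, a log2 difference of 0.28 ± 0.16 (SE, edgeR adjusted p = 0.306). HTA11 and HTA8 had log2 differences of 0.16 and -0.04. The H2A.Z median was 0.16, and all 3 genes had replicate 3 below the Col libraries, beside 35.6% of all genes tested.

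Of the linker histones, AT1G06760 (chr1:2076504-2077767, minus strand) was at 287, 307 and 303 CPM in Col and at 326, 395 and 278 CPM in ore15-2, and AT2G30620 had a log2 difference of 0.13. HIS1-3, the linker histone known to be induced by drought and low light, ran the other way. HIS1-3 (chr2:7845923-7847031, plus strand) was at 25.8, 28.4 and 26.5 CPM in Col and at 19.2, 12.7 and 28.5 CPM in ore15-2, a log2 difference of -0.36 ± 0.23 (SE, edgeR adjusted p = 0.332). Its replicates 1 and 2 were below and its replicate 3 was slightly above Col, the reverse of the H4 and H3.1 genes.

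The median log2 fold change was 0.24 for the 23 replication-coupled genes (19 above 0 and 4 below) and 0.16 for the 11 variant genes (9 above and 2 below). Without ore15-2 replicate 2 these were 0.09 and 0.05, without replicate 3 they were 0.37 and 0.28, and without replicates 1 and 2 they were -0.11 and -0.02. The split in CPM, with replicates 1 and 2 above and replicate 3 below Col, was seen in 15 of the 23 replication-coupled genes and 3 of the 11 variant genes. Over all genes tested 7.12% had it. In RPKM none of the 3 variant genes (HTA6, HTA9 and HTA11) kept it. Their replicate 1 values of 379, 420 and 225 RPKM were below every Col library. Of the replication-coupled genes AT1G07660 lost it in RPKM too, while AT1G09200 kept it. By library, the replication-coupled medians were 0.28, 0.48 and -0.12, and the variant medians were 0.15, 0.48 and -0.04. Scaled by library total, as in the deposited RPKM values, the median over all genes was itself -0.21, and the group medians of 0.00 and -0.07 lay above that shift, with 16 of the 37 histone genes above 0.

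Ratios between histone classes within a library do not depend on that scaling. Summed RPKM of the replication-coupled genes relative to the variant genes was 1.70, 1.63 and 1.69 in Col and 1.68, 1.66 and 1.54 in ore15-2, which overlapped. H3.1 made up 33.4%, 32.2% and 33.1% of summed H3 RPKM in Col and 33.6%, 36.4% and 29.5% in ore15-2. The H3.1 share was thus above all Col libraries in replicates 1 and 2 and below them in replicate 3, and its mean of 33.2% ± 3.46 (SD, n = 3) was close to the 32.9% ± 0.65 (n = 3) in Col.

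Within H2A, the shares of H2A.W and H2A.X did not overlap between genotypes, by small amounts. H2A.W made up 21.2%, 22.0% and 21.8% of summed H2A RPKM in Col and 19.8%, 19.9% and 19.8% in ore15-2, so every ore15-2 library was lower, and the 3 were nearly equal. The H2A.X share was 16.1%, 15.8% and 15.1% in Col and 17.3%, 17.2% and 16.5% in ore15-2, higher in all 3, with the uncertainty of HTA3 given above. The shares of canonical H2A and H2A.Z overlapped between genotypes. These shares are descriptions with no test. Shares of the same total depend on each other, and HTA12 in the H2A.W sum also overlaps another gene. Among single genes a lack of overlap was common, with 18.2% above and 16.3% below all Col libraries in CPM. The histone genes together took 0.518%, 0.515% and 0.515% of all counts in Col and 0.517%, 0.538% and 0.474% in ore15-2.

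**Figure D3:**
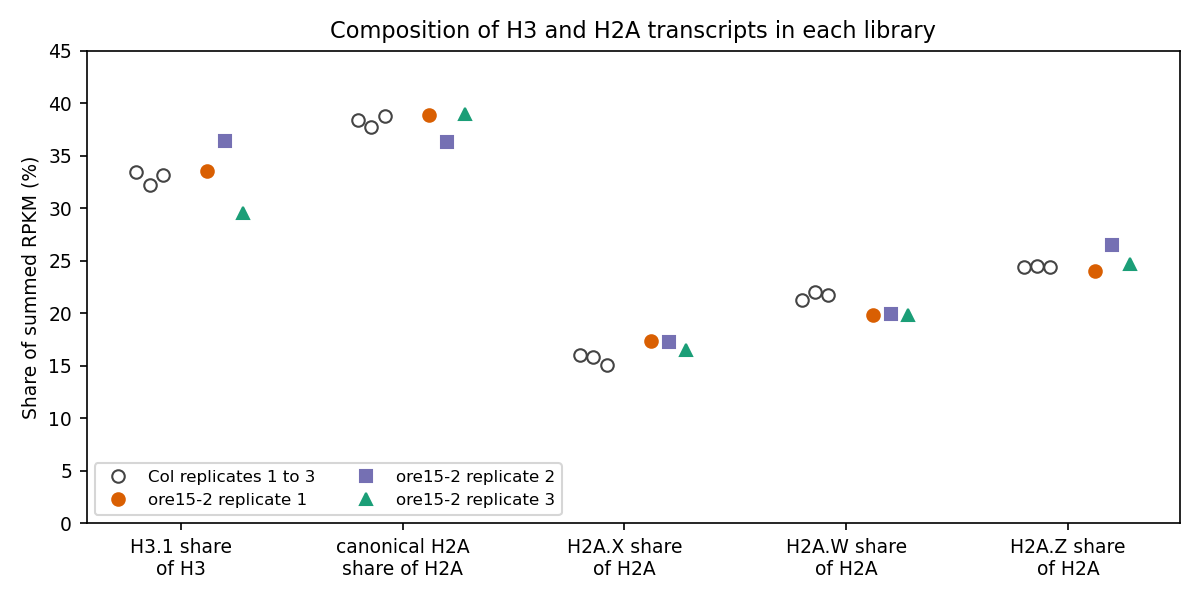
Share of summed RPKM (percent) taken by H3.1 within H3 and by each form within H2A, in each library. Open circles are the 3 Col libraries and coloured symbols are the 3 ore15-2 libraries. The H2A.W share is 21.2% to 22.0% in Col and 19.8% to 19.9% in ore15-2, while the H3.1 share spreads from 29.5% to 36.4% in ore15-2 around the Col values.

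Many plant histone genes carry the octamer CGCGGATC upstream of the start, and the sequence was searched for in the 250 bases before the annotated start of each gene, on both strands. It was found in 37 of 27443 protein-coding nuclear genes (0.13%), and 10 of these 37 were histone genes of the list. They were 7 replication-coupled genes (30.4% of 23), 2 variant genes (18.2% of 11) and 1 linker gene. Of the classes, 3 of 5 H3.1 genes and 0 of 6 H2B genes had it. The E2F-type octamers TTTCCCGC, TTTGGCGC and TTTCGCGC, the last of which shares the letters CGCG with this motif, were found before 311 of all genes (1.13%) and before 2 histone genes, the H4 genes AT3G46320 and AT3G45930. The 250 bases before the highest H4 gene, the H3.1 gene with the largest fold change and the highest H3.3 gene are printed, as 1 example each of a match in the 3 classes. The octamer is in capitals, in the reverse direction in AT4G40040, and the windows are chr5:24051224-24051473 (plus strand), chr5:26120582-26120831 (minus) and chr4:18558946-18559195 (minus) of TAIR10.1 from RefSeq.

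AT5G59690 (H4): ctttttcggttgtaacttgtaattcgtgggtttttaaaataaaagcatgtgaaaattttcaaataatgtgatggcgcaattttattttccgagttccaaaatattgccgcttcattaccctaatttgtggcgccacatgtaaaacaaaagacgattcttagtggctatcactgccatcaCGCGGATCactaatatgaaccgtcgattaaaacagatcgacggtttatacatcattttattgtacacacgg
AT5G65360 (H3.1): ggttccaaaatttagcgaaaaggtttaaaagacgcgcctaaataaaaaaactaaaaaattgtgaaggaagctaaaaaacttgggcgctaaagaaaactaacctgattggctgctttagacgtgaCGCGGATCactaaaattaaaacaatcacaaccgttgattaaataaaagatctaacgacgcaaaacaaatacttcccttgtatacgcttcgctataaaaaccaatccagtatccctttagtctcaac
AT4G40040 (H3.3): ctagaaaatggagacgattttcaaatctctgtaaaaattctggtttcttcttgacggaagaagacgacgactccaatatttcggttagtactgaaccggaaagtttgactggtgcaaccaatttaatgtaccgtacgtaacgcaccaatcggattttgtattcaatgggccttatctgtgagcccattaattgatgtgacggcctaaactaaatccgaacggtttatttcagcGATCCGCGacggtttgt

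The octamer lay 63, 118 and 9 bases from the start in these 3 genes. The 10 histone genes with it had a median log2 fold change of 0.22, and the 27 without it had 0.21. A match is a description of letters and not a site of binding.

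None of the listed genes that handle histones passed the test. The share called over all genes tested was 9.9%, so lists this short would hold few calls at that share. Of 8 genes listed for replication-coupled deposition, which include the CAF-1 subunits FAS1 and FAS2, 0 were called and 6 had log2 fold changes below 0. The smallest p in the list was that of ATXR5, which methylates H3.1, at -0.47 (edgeR adjusted p = 0.125). ATXR5 and ATXR6, the latter at -0.15, are not deposition factors, and both are among the 6 below 0. Of 9 genes for replication-independent deposition and exchange, including HIRA and the SWR1 subunit PIE1, 0 were called, and DDM1, a remodeller of heterochromatin, had the smallest p at -0.33 (edgeR adjusted p = 0.106). Of 7 H2A-H2B and general chaperones 0 were called and all 7 were below 0, with NAP1;2 at -0.18 (edgeR adjusted p = 0.288). In replicate 2, where the histone median was 0.45, the medians of these 3 lists were -0.29, -0.26 and -0.23. The lists were not matched to the histone genes in coding length. In that replicate the median was 0.16 over other genes in the length range of the histone genes, and -0.18 over those above 2000 bases. The part of gene length in this gap was not tested.

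Of 18 S-phase genes 0 were called, 4 were above 0 and 14 below, with a median of -0.15. For this list and the next 2, the share called over all genes tested was 9.9%. MCM3, a subunit of the replicative helicase, had the smallest p at -0.55 (edgeR adjusted p = 0.0945). The S-phase genes did not move as 1 group across the libraries. Of the 18, 2 had replicates 1 and 2 above and replicate 3 below every Col library. They were TSO2, a ribonucleotide reductase subunit, and PCNA1, a sliding clamp. Over all genes tested 7.12% had that split, and 4 of the 10 genes of G2 and mitosis had it. The log2 changes of TSO2 were 0.39, 0.74 and -0.11, and those of PCNA1 were 0.41, 0.52 and -0.29. Both genes were picked once their values had been seen. The S-phase list was not matched to the histone genes in coding length either, and the part of length was not tested. Of 10 genes of G2 and mitosis 0 were called, 5 were above 0 and 5 below, and the cyclin CYCB2;4 had the smallest p at -0.47 (edgeR adjusted p = 0.0927). Of 11 further histone genes outside the list 5 were tested and 0 were called, with a median of 0.29, and the H2B gene AT3G53650 had 0.65 (edgeR adjusted p = 0.0738).

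Over these 5 lists on deposition, chaperones and the cell cycle and the further histone genes, some genes had an unadjusted p under 0.05. There were 1, 1, 0, 2, 1 and 1 in the order given, where the share over all genes tested was 26.9%. DESeq2 called MCM3 and AT3G53650, beside 13.5% of all genes, and limma-voom called 0. Without ore15-2 replicate 3 edgeR called 8 of these genes, beside 35.3% of all genes, and without replicates 1 and 2 it called 7, beside 16.6%.

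**Figure D4:**
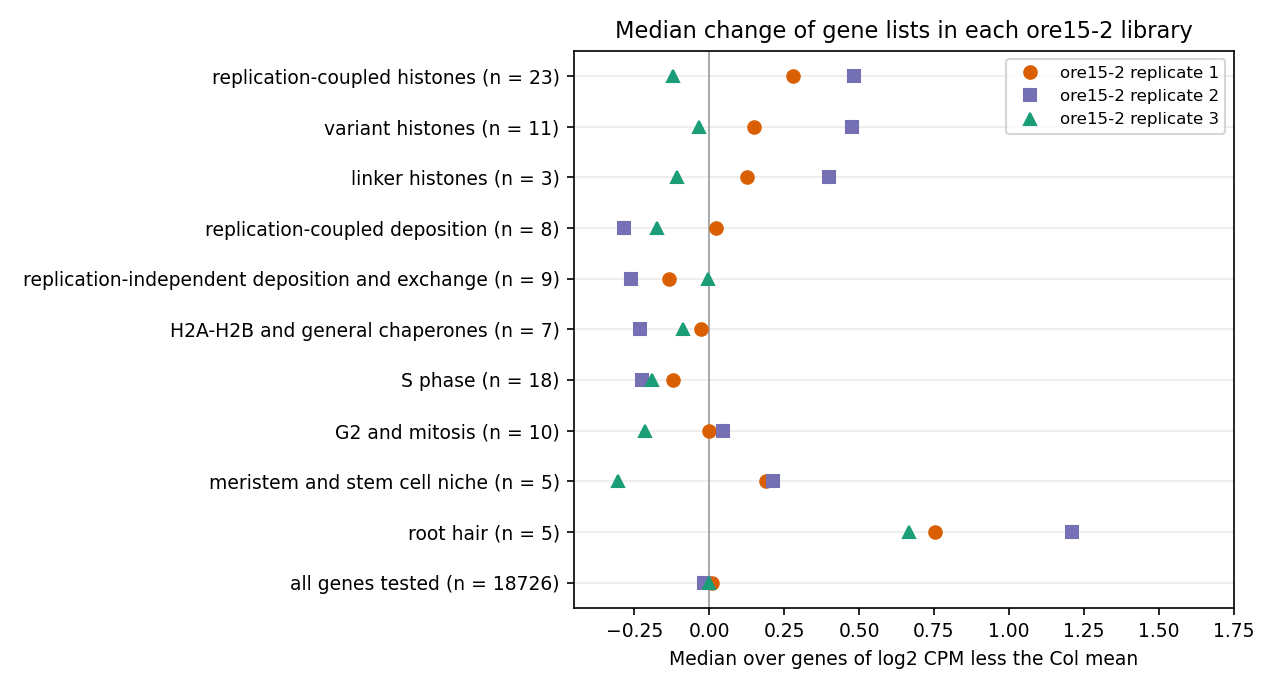
Median over the genes of each list of log2 CPM less the Col mean (horizontal axis), with 1 symbol for each ore15-2 library and the number of genes tested in brackets. The 3 histone groups lie at 0.13 to 0.48 in replicates 1 and 2 and at -0.12 to -0.04 in replicate 3, the deposition and S-phase lists lie at or below 0.02, and the root hair markers lie at 0.67 to 1.21.

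The tissue markers moved in part with the same libraries. Of 6 meristem markers 5 were tested and 0 called, beside 9.9% of all genes tested. Their medians were 0.19, 0.21 and -0.30 in ore15-2 replicates 1, 2 and 3, but the 5 did not move together. Only SCR had replicates 1 and 2 above and replicate 3 below every Col library. PLT2 was above and WOX5 below every Col library in all 3 ore15-2 libraries. The summed CPM of the meristem markers was 95.5 to 108 in Col and 117, 125 and 84.7 in ore15-2. RGF1 was not tested. WOX5, which marks the quiescent centre, had the smallest p at -0.60 (edgeR adjusted p = 0.129). All 5 root hair markers rose, among them RSL4 by 1.08, PRP3 by 1.24, COBL9 by 0.81 and EXPA18 by 0.90 on the log2 scale (edgeR adjusted p = 0.00245, 0.0166, 0.0232 and 0.0232), with summed CPM of 242 to 283 in Col and 419, 731 and 438 in ore15-2. All 5 were above every Col library in replicate 3 as well. Only 6 of the 37 histone genes were, where 6577 of all 18726 genes tested were. Of 4 root cap markers FEZ rose by 1.13 (edgeR adjusted p = 0.0472), with summed CPM of 27.4 to 34.01 in Col and of 48.1, 44.3 and 36.6 in ore15-2.

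Of 4 endodermis and 4 xylem markers 0 were called, beside 9.9% of all genes tested. CASP1 had the smallest p of the first at 0.38 (edgeR adjusted p = 0.179) and VND7 of the second at -0.55 (edgeR adjusted p = 0.151). At an unadjusted p under 0.05 there was 1 gene in the meristem, endodermis and xylem lists each, beside 26.9% of all genes tested. The summed CPM of the endodermis markers was 442 to 565 in Col and 502, 734 and 582 in ore15-2, and that of the xylem markers was 199 to 209 and 163, 193 and 194. Of 4 shoot markers PSAD1 fell by 0.94 on the log2 scale (edgeR adjusted p = 0.00126), while the other 3 had log2 fold changes above 0, at 1.62 for CAB3 (edgeR adjusted p = 0.0548), 0.41 for LHCB1.3 and 0.15 for RBCS1A. The shoot medians by library were 0.33, 0.74 and -0.41, and the summed CPM was 302 to 338 in Col and 380, 504 and 238 in ore15-2, again highest in replicate 2 and lowest in replicate 3. The part of these tissue differences in the histone values was not tested.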

How the data were processed

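Poly(A) RNA, selected for an integrity number of at least 6.7, was sequenced as stranded TruSeq libraries, per the labels' protocols. The authors deposited read counts and RPKM values for each gene. The submitters' processing notes name FastQC, cutadapt, HTSeq, TopHat2 and TAIR10, with neither strand setting nor annotation release given in the sources used here. The deposited RPKM values equal the counts divided by the library total and by 1 length per gene over 18340 shared genes, so they are no separate measurement. That length was within 1 base of an annotated coding length for 37 of 37 histone genes. For genes with several annotated transcripts, the transcript whose coding length lay closest to it was taken. The match is thus partly selected for those genes, and their whole-transcript lengths come from the same choice.

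For 18726 genes, edgeR 4.0.16 in R 4.3.3 gave quasi-likelihood F-tests of genotype on the counts (TMM, filterByExpr, no covariate), with Benjamini-Hochberg adjustment over all of them and a threshold of 0.05. Standard errors are the absolute log2 fold change over the square root of F. CPM uses TMM-scaled library sizes, and log2 changes by library use a prior count of 2. The code was tested on simulated data. Alternatives were RLE and upper-quartile scaling, no organelle genes, DESeq2 1.42.0, limma-voom and limma 3.58.1 on log2(RPKM + 1) and log2(RPKM + 0.1), other filters, a replicate block, class sums and libraries left out.

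The histone genes and all lists were chosen with earlier results of these data known. Every histone gene is named. Values by library are given for genes past the threshold and, in each class, for the genes with the highest mean RPKM and the smallest p. In each other list up to 4 genes past the threshold were named, or otherwise the gene with the smallest p. Sequences, coordinates and names are from RefSeq's TAIR10.1, read with Biopython 1.88 in Python 3.11.15.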

Additional observations from a re-analysis of the deposited data

How the results depend on the processing

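The counts of 0 histone genes called higher and 0 lower held under RLE and upper-quartile scaling and without organelle genes. They also held with DESeq2, limma-voom and limma on RPKM, under the other filters and with the replicate block. A fold minimum of 0.58 on the log2 scale only takes from the genes called, so it could not change a count of 0. Leaving out 1 library gave 0 to 20 histone genes higher and 0 to 1 lower, medians of 0.09 to 0.37 for the replication-coupled and 0.05 to 0.28 for the variant genes, and 0 to 8 calls in the chromatin and cell cycle lists. The high ends come from leaving out ore15-2 replicate 3. Without ore15-2 replicates 1 and 2, 3 histone genes were called lower, the replication-coupled median was -0.11, the lists had 7 calls (ARP6, DDM1, PCNA1, PCNA2, MCM7, CYCB2;4 and KNOLLE), and 9 histone genes had fold changes above 0 and 28 below, where 30 and 7 did with all libraries. Among them HTA2 and HTA6 were called at -0.26 and -0.27, with the opposite sign. The cause was not tested. DESeq2 called 2 genes of the lists, MCM3 and AT3G53650. The replicate block called 1, AT3G53650, with 1090 genes higher and 551 lower overall. The labels do not say that replicate numbers pair the libraries. Same-numbered ones had correlations of 0.06, 0.08 and -0.20, and differently numbered ones had -0.28 to 0.24. These are of deviations from the mean of each genotype's 3 libraries, and they cannot settle whether libraries were paired. Fitting class sums in place of genes gave log2 differences of 0.24 for H4, 0.40 for H3.1, 0.35 for H3.3 and 0.03 for H2A.W.

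Depth was unequal, with 6396903 counts in the shallowest library and 20333352 in the deepest. Every histone gene had at least 64 counts in each library, and the median coefficient of variation over the histone genes was 20.8% among the ore15-2 libraries.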
